A study of Mus musculus with 56 samples.

Results

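The 4 genes of prostaglandin and nitric oxide synthesis, Ptgs1, Ptgs2, Ptges and Nos2, were followed through 56 chromatin immunoprecipitation sequencing (ChIP-seq) peak lists from mouse bone marrow-derived macrophages (BMDMs). A peak belonged to a gene when the Gene Name column of the list carried that gene, which is the gene with the nearest annotated start in the HOMER annotation. This gave 630 of 1610519 peaks, for 4 of the 20352 genes named: 264 peaks for Ptgs1, 214 for Ptgs2, 35 for Ptges and 117 for Nos2.

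The macrophages came from wild-type C57BL/6 mice of 8 to 12 weeks and were differentiated for 6 days in L929 cell supernatant, a source of macrophage colony-stimulating factor. In the first experiment, cells left untreated (ctrl) were compared with cells given interleukin-4 (IL-4, 20 ng/ml) for 1 hr (1hIL4), with antibodies against RNAPII-pS5, RNAPII-pS2, H3K27Ac, PU1, p300, HDAC1, HDAC2 and HDAC3. In the second, antibodies against RNAPII-pS5, RNAPII-pS2 and p65 were used in untreated cells (ctrl_ctrl), cells with 24 hr of IL-4 (24hIL4_ctrl), cells with 1 hr of lipopolysaccharide (ctrl_1hLPS, 100 ng/ml per the labels) and cells with 24 hr of IL-4 followed by 1 hr of LPS (24hIL4_1hLPS). Each antibody and condition had 2 replicates, which the study describes as independent biological ones and which no label ties to particular animals, and the tests measure the spread between these lists. The labels give HDAC3 the same antibody catalogue number as H3K27Ac. The study's methods text does so too, while its key resource list gives HDAC3 a different number. Which antibody the HDAC3 lists stand for was therefore not settled here. A score cannot tell whether more cells carried a mark or each cell carried more of it.

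Ptgs1 and Ptgs2 encode cyclooxygenase-1 and cyclooxygenase-2, which convert arachidonic acid into prostaglandin H2. Ptges encodes microsomal prostaglandin E synthase-1, which turns that intermediate into prostaglandin E2, and Nos2 encodes inducible nitric oxide synthase, which makes nitric oxide from arginine. In macrophages, Ptgs2, Ptges and Nos2 are textbook targets of LPS and NF-kB, Ptgs1 is usually described as constitutive, and IL-4 drives alternative polarization through STAT6.

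A peak score was the authors' −log10 p or q value from MACS2 for every antibody except H3K27Ac, for which it was the HOMER signal of normalised tags in fixed-size regions. A gene's value was the sum of the scores of its peaks. Changes were tested by limma on log2 values centred on each list's median over the genes with a peak in every list of that fit. That median is called the median gene below. A change passed at a Benjamini-Hochberg adjusted p of at most 0.05 over all genes tested. A list without a peak took the lowest score of its antibody, so no fold is given where a group had no peak, and positions are given in kb from the start that the lists use. Sequencing depth is unknown. The lists held 8440 to 71027 peaks, with p65 going from 9556 to 11026 without LPS to 26305 to 38955 with LPS, and p300 ctrl replicate 1 holding 44787 against 66710 to 69360 in the other lists of that antibody. Of 8 macrophage markers, 6 carried H3K27Ac under their own Gene Name (Adgre1 under its older symbol Emr1), with a summed level of 3512 to 3655 in ctrl and 4571 to 4608 in 1hIL4, and Cd68 and Lyz2 were at 0. Of 25 markers of other marrow cells, 9 carried any. The part of this marker change in the results was not tested. The IL-4 targets Arg1, Cish and Retnla rose in H3K27Ac after 1 hr of IL-4, by 1.74, 1.00 and 1.23 on the log2 scale (limma adjusted p = 0.00382, 0.00328 and 0.0157). For RNAPII-pS5, Retnla had no ctrl peak and scored 13.1 and 16.4 after IL-4 (adjusted p = 0.0407), while Arg1, Cish and Chi3l3 did not pass (adjusted p = 0.201, 0.0578 and 0.279).

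The sequences of the sites on which the results turned are printed here from mm10 (GRCm38), 5′ to 3′ on the forward strand. Capitals mark matches, on either strand, to the 10-letter NF-kB consensus, AP-1 (TGANTCA), PU.1 (GAGGAAGT), C/EBP (TTGCNNAA) and STAT6 (TTCNNNNGAA). Of the 4 genes, 3 were in the RefSeq promoter table, and Nos2 was not. The Ptgs2 and Ptgs1 promoters (250 bases before the RefSeq start, GRCm38.p6) are shown because p65 was found at the first in every list with LPS and RNAPII-pS5 at the second in both lists with IL-4.
Ptgs2 promoter, chr1:150099781-150100030: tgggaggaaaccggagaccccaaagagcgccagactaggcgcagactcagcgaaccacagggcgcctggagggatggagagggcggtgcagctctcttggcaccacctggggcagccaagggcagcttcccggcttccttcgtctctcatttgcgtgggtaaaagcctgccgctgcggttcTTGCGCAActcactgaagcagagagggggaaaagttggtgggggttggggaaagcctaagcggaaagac
Ptgs1 promoter, chr2:36230176-36230425: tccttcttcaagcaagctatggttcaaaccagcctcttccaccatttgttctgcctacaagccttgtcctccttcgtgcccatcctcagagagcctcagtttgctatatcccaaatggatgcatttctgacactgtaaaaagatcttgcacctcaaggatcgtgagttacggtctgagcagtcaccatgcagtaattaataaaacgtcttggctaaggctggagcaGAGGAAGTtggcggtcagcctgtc
The other windows are 200 bases about the centre of the p65 peaks after LPS or, for Ptgs1, of the PU1 peaks after IL-4.
Ptgs1, 13.3 kb upstream, chr2:36217101-36217300: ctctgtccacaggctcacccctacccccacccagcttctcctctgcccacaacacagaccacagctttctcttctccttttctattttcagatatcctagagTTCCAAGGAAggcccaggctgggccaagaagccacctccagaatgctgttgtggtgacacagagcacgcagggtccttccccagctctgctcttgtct
Ptgs2, 51.4 kb downstream, chr1:150151385-150151584: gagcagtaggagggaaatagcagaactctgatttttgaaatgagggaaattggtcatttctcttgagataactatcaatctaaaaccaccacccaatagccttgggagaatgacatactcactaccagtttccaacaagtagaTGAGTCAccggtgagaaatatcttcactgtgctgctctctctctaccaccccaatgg
Ptgs2, 97.8 kb downstream, chr1:150197823-150198022: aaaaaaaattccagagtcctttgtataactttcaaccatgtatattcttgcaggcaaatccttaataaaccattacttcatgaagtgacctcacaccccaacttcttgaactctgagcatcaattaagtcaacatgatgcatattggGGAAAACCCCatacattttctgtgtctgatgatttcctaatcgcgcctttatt
Ptges, 10.1 kb upstream, chr2:30913290-30913489: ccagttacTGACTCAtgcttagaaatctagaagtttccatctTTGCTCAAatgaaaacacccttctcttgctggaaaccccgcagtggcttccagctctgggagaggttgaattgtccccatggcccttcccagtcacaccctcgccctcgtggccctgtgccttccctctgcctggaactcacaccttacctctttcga
Ptges outer start, 26.1 kb upstream, chr2:30929824-30930023: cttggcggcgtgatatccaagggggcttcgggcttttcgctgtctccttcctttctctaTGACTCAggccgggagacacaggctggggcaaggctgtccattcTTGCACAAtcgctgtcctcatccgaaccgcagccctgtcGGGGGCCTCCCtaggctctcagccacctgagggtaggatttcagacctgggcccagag
Nos2, 33.6 kb upstream, chr11:78887067-78887266: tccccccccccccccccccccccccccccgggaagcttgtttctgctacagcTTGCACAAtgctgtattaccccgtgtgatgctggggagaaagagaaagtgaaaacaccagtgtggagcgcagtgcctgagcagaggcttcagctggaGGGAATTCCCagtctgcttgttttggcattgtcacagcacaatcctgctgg
The window upstream of Ptgs1 held 1 STAT6 match, and the Ptgs1 promoter 1 PU.1 match. An NF-kB match was present 97.8 kb downstream of Ptgs2, 33.6 kb upstream of Nos2 and, as 2 overlapping matches, at the outer Ptges start, but not in the windows 51.4 kb downstream of Ptgs2 or 10.1 kb upstream of Ptges, which each held 1 AP-1 match. No different motifs overlapped. Among all 37556 p65 sites, windows of the same length held an NF-kB match in 14.2%, AP-1 in 23.3%, PU.1 in 8.3%, C/EBP in 15.4% and STAT6 in 8.44%. Among 32851 RefSeq promoters the shares were 7.25%, 6.75%, 2.44%, 9.56% and 5.85% in the same order. A match is only a description of the letters in a window.

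After 1 hr of IL-4, H3K27Ac rose at Ptgs1. Its summed H3K27Ac, a histone mark of active promoters and enhancers, was 130.5 and 112.8 in the ctrl lists and 382.7 and 359.7 in the 1hIL4 lists. The groups did not overlap, and the change was 1.62 ± 0.09 (SE) on the log2 scale (limma adjusted p = 0.00420). Of 3 members tested for H3K27Ac, 1 passed, a share near the 32.8% of all genes tested, and the count was 2 or 3 under several alternatives. Ptgs2 had 77.3 and 95.0 before and 70.9 and 78.1 after IL-4, which overlapped, with a change of −0.20 ± 0.14. Nos2 had 126.8 and 134.6 before and 104.3 and 109.4 after, with a change of −0.28 ± 0.07 that missed the threshold (adjusted p = 0.0537) and passed it without centring (adjusted p = 0.0454). Ptges had no H3K27Ac region under its Gene Name.

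The Ptgs1 change lay at several sites. At the site 13.3 kb upstream (chr2:36216396-36218204), intergenic and occupied by all 9 antibodies, H3K27Ac was 60.8 and 55.9 in ctrl and 194 and 176.3 in 1hIL4, a change of 1.72 ± 0.09 (adjusted p = 0.00187). In the intron 14.5 kb downstream of the start it went from 16.3 and 19.7 to 51.7 and 48.3 (1.53 ± 0.13, adjusted p = 0.00491). At 42.2 kb downstream, beyond the gene's end, it went from 32.2 and 37.2 to 63.2 and 66.7 (0.96 ± 0.10, adjusted p = 0.00811). All 3 sites were higher in both IL-4 lists than in either ctrl list, beside 40.3% of all H3K27Ac sites that passed in either direction. The region at the promoter scored 21.2 in ctrl replicate 1, had no peak in replicate 2, and scored 73.8 and 68.4 after IL-4.

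The other antibodies were in places higher at Ptgs1 after IL-4 without passing the test. Summed RNAPII-pS5, the initiating polymerase, was 41.8 and 12.0 in ctrl and 87.9 and 78.5 in 1hIL4 (1.94 ± 0.49, adjusted p = 0.236), beside 1.39% of all genes that passed. Those 187 genes became 0 when any 1 of the 4 lists was left out. Its promoter peak scored 8.25 in ctrl replicate 1, was absent from replicate 2, and scored 43.6 and 39.0 after IL-4. PU1, an ETS factor of the macrophage lineage, summed to 188.5 and 69.8 in ctrl and 289.6 and 277.4 in 1hIL4 (1.02 ± 0.40, adjusted p = 0.524), with 0% of genes passing. The groups did not overlap for either antibody, but the ctrl lists differed from each other more than the IL-4 lists did.

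For p300, a histone acetyltransferase, the Ptgs1 sum was 168.0 and 496.3 in ctrl and 817.9 and 754.0 in 1hIL4 (0.59 ± 0.17, adjusted p = 0.153), with 0% of genes passing. The lower ctrl value came from the p300 list with fewer peaks, and without that list the change was 0.65 (adjusted p = 0.157). An intronic p300 site 6.2 kb downstream of the start, chosen after its values were seen, had no ctrl peak and scored 89.4 and 84.3 after IL-4, which is given with no test. PU1 peaks at the same place scored 17.8 and 12.3 after IL-4, again with none in ctrl.

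The 3 histone deacetylases gave no change at Ptgs1 that passed. HDAC1 summed to 40.5 and 33.5 in ctrl and 31.1 and 25.9 in 1hIL4, HDAC2 to 35.7 and 42.5 and then 67.9 and 49.8, and HDAC3 to 46.9 and 43.6 and then 64.2 and 89.5. HDAC1 was thus lower and HDAC2 and HDAC3 higher in both IL-4 lists, but after centring the changes were 0.08 ± 0.34, 0.50 ± 0.43 and 0.33 ± 0.48 (limma adjusted p = 0.967, 0.859 and 0.818). For each, 0% of genes passed. For p300, PU1, HDAC1, HDAC2 and HDAC3, limma passed 0 members, with 2 members of p300 and 0 of the other 4 at an unadjusted p under 0.05.

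**Figure D1:**
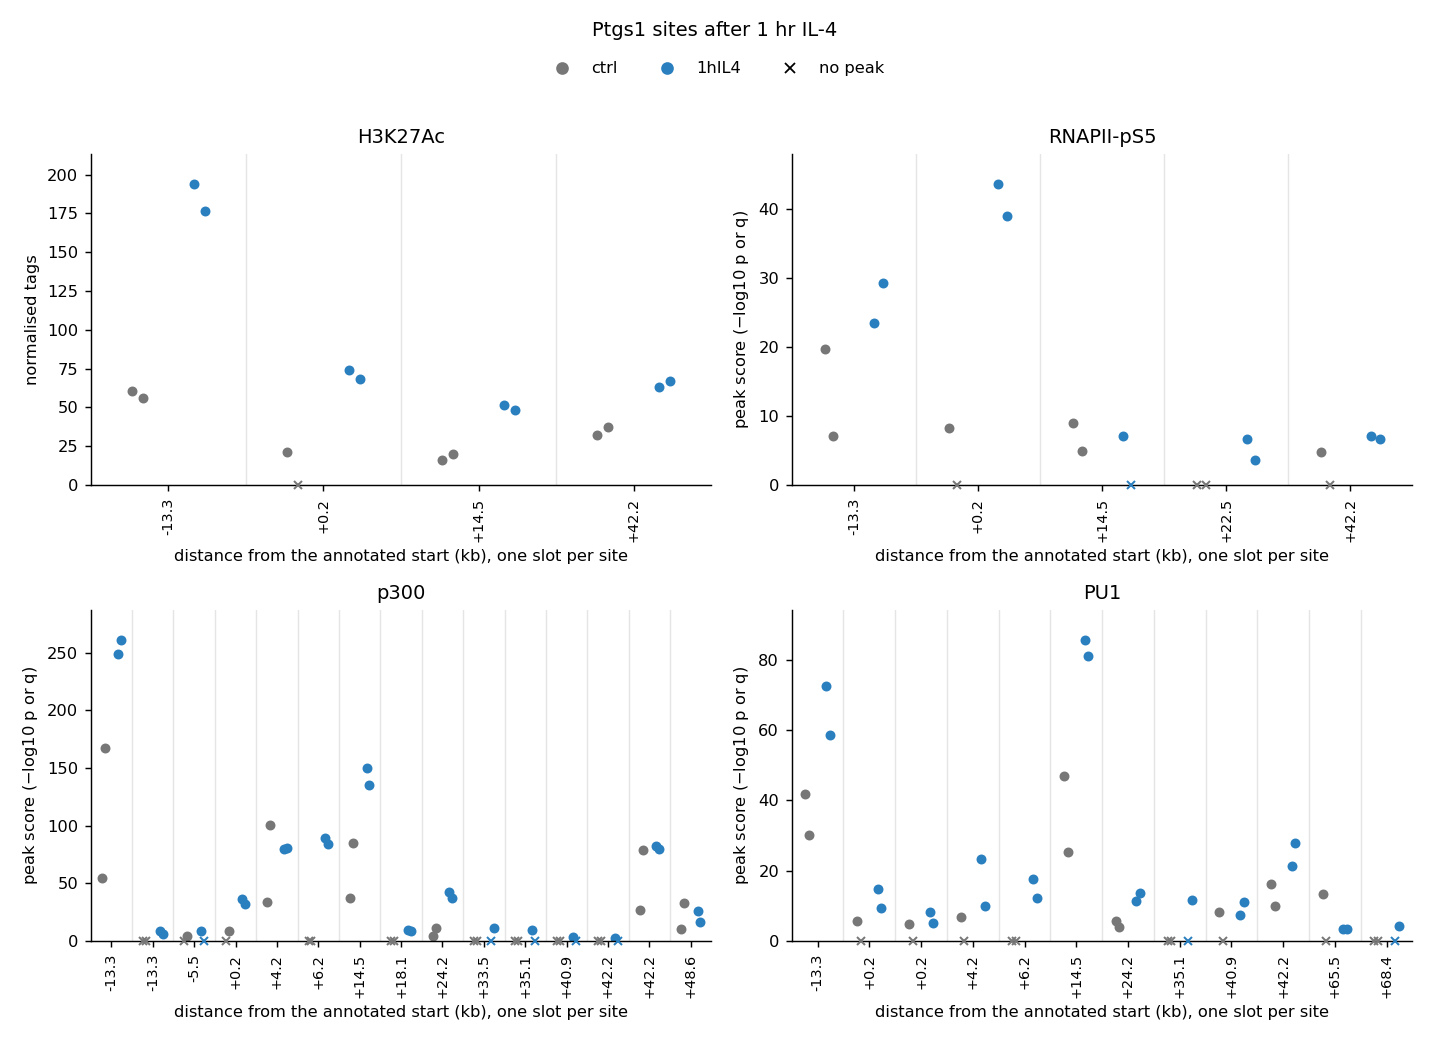
Score of each Ptgs1 site (y axis, normalised tags for H3K27Ac and −log10 p or q otherwise) by its distance in kb from the annotated start (x axis, not to scale), where dots are single lists and crosses are lists without a peak. At the H3K27Ac site 13.3 kb upstream, the 1hIL4 lists (194 and 176.3) lie above the ctrl lists (60.8 and 55.9).

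Ptgs2 and Nos2 had no RNAPII-pS5 change that passed after 1 hr of IL-4. Ptgs2 summed to 21.6 and 22.8 in ctrl and to 7.31 and 11.9 in 1hIL4 (−1.21 ± 0.39, adjusted p = 0.315), without overlap. Its strongest site by RNAPII-pS5, 64.9 kb downstream, scored 17.5 and 12.8 in ctrl and 7.31 and 7.49 in 1hIL4. HDAC1 at Ptgs2 was 22.5 and 25.7 before and 14.6 and 12.3 after (−0.39 ± 0.38 after centring, adjusted p = 0.848). The HDAC1 median gene itself shifted by −0.458. HDAC2 was 28.8 and 27.3 and then 15.6 and 21.2 (−0.705 ± 0.534, adjusted p = 0.827). All of these scores were lower in both IL-4 lists, and none passed. For PU1, p300 and HDAC3 the Ptgs2 groups overlapped, with centred changes of −0.22 ± 0.25, −0.60 ± 0.16 and −0.28 ± 0.37. These did not pass either (limma adjusted p = 0.818, 0.1465 and 0.796).

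At Nos2, RNAPII-pS5 was 21.6 and 6.45 in ctrl and 8.89 and 5.88 in 1hIL4, which overlapped. The site 4.3 kb upstream carried most of the Nos2 H3K27Ac, with 81.7 and 88.1 in ctrl and 59.6 and 67.7 in 1hIL4 (adjusted p = 0.0554). The intronic p300 site 29.7 kb downstream went the other way, from 9.85 and 23.4 to 78.4 and 67.0, and did not pass (adjusted p = 0.0852, and 0.0868 without the p300 list with fewer peaks). For Ptges, the only 1 hr antibody with a peak under its name was p300, with 5.82 and 25.8 in ctrl and none and 8.99 in 1hIL4.

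RNAPII-pS2, the elongating polymerase, stood apart in the 1 hr experiment. In the libraries labelled ctrl, Ptgs1 summed to 52.2 and 83.3, and in those labelled 1hIL4 it was absent from replicate 1 and 7.46 in replicate 2 (adjusted p = 0.0902), with 0% of genes passing and 1 of the 1 member tested at an unadjusted p under 0.05. The IL-4 targets Cish (60.5 and 90.6) and Retnla (10.2 and 20.6) had peaks only in the libraries labelled ctrl there (adjusted p = 0.0574 for both), whereas in RNAPII-pS5 Cish was 43.9 and 27.5 in ctrl and 96.7 and 103.5 in 1hIL4. The peak names inside these files carry the opposite treatment to the sample labels, so no direction is read from RNAPII-pS2 at 1 hr. Ptgs2, Ptges and Nos2 had no RNAPII-pS2 peak in that experiment.

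LPS raised Ptgs2 in each of the 3 antibodies of the second experiment. Summed RNAPII-pS5 at Ptgs2 was 18.97 and 10.54 in ctrl_ctrl and 42.1 and 59.1 in ctrl_1hLPS (2.14 ± 0.38, adjusted p = 0.0101). RNAPII-pS2 was 47.0 and 36.5 and then 177.9 and 170.1 (1.85 ± 0.22, adjusted p = 0.00283). p65, the NF-kB subunit that enters the nucleus after LPS, was 18.0 and 12.3 and then 113.1 and 158.5 (1.53 ± 0.30, adjusted p = 0.0131). No LPS list overlapped an untreated list, and the p65 change is what remained above a shift of 1.64 in the median gene. The p65 call was lost without ctrl_1hLPS replicate 2 or ctrl_ctrl replicate 2 (adjusted p up to 0.0534), and it rested on intergenic peaks, since without them 1 list of each group kept a peak (adjusted p = 0.832). The polymerase peaks in ctrl_ctrl were intergenic as well, at 43.6 and 64.9 kb downstream for RNAPII-pS2 and at 64.9 kb for RNAPII-pS5. With LPS, RNAPII-pS2 scored 8.04 and 7.43 at the promoter site and 59.9 and 57.7 at 64.9 kb.

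Ptges, whose product acts just after the cyclooxygenases, had no peak under its Gene Name for any of the 3 antibodies in either ctrl_ctrl list. After LPS, p65 summed to 166.3 and 178.0 over 3 sites (adjusted p = 0.00131) and RNAPII-pS2 to 30.7 and 18.95 (adjusted p = 8.91e-04). RNAPII-pS5 was found in ctrl_1hLPS replicate 1 only, at 3.62, and did not pass (adjusted p = 0.180). Nos2 had RNAPII-pS2 sums of 12.2 and 20.4 without and 55.3 and 69.2 with LPS (1.75 ± 0.42, adjusted p = 0.0281), a call lost without ctrl_ctrl replicate 1 or either ctrl_1hLPS list (adjusted p up to 0.118). Its p65 went from 22.8 and 29.7 to 87.5 and 96.0, which was 0.18 ± 0.25 after centring (adjusted p = 0.615) and 1.82 without it (adjusted p = 0.00271). So the p65 rise at Nos2 was about that of the median gene with a peak in every p65 list. The LPS targets Nfkbia (152 and 115.8, then 275.4 and 260.9) and Cxcl2 (22.1 and 17.7, then 92.9 and 103.7) also rose in score. After centring they changed by −0.62 and 0.67 and did not pass (limma adjusted p = 0.110 and 0.0779). Tnf, with 3.34 in 1 ctrl_ctrl list and then 42.2 and 55.5, passed (adjusted p = 0.00946). A centred p65 value thus does not show whether the score itself rose.

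Ptgs1 moved against the other members. RNAPII-pS5 summed to 34.6 and 26.4 in ctrl_ctrl, and neither ctrl_1hLPS list held a Ptgs1 peak (adjusted p = 0.00259). RNAPII-pS2 fell from 69.6 and 62.3 to 33.4 and 35.8 (−1.15 ± 0.21, adjusted p = 0.0130), which was lost without ctrl_1hLPS replicate 1 or either ctrl_ctrl list (adjusted p up to 0.0651). Its p65 score was 20.4 and 35.1 without and 22.7 and 18.6 with LPS, overlapping ranges. Set against the shift of the median gene, this was −2.02 ± 0.35 (adjusted p = 0.00841), and without centring −0.38 (adjusted p = 0.398).

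In counts, LPS alone changed 2 of 4 members in RNAPII-pS5 (Ptgs2 up, Ptgs1 down) beside 25.4% of all genes, 4 of 4 in RNAPII-pS2 (3 up, Ptgs1 down) beside 26.7%, and 3 of 4 in p65 (Ptgs2 and Ptges up, Ptgs1 down) beside 35.1%. Of the 4324 genes that passed for p65, 864 had no peak in either group and passed through the centring of the score that stood in for them, and among genes with a peak in every list compared the shares were 16.5%, 20.2% and 31.2% in the same order. Ptgs2, Ptges and Nos2 are known LPS targets, and Ptges met the filter of 2 lists with a peak only through lists with LPS, so these counts are a description.

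**Figure D2:**
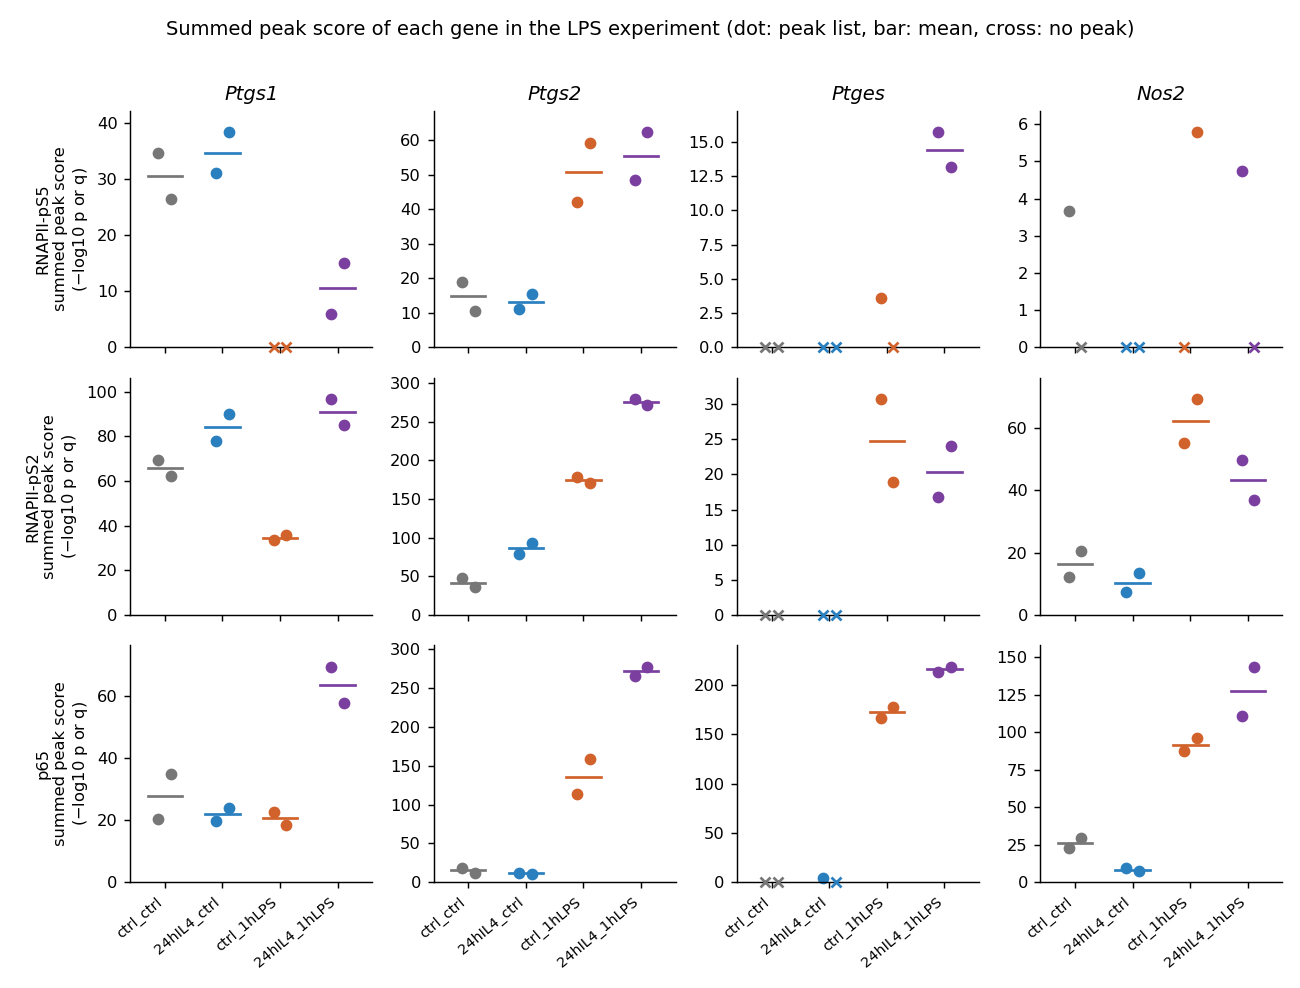
Summed peak score (y axis, −log10 p or q) of each gene for RNAPII-pS5, RNAPII-pS2 and p65 in the 4 groups of the LPS experiment (x axis), where dots are single lists, bars are means where both lists hold a peak, and crosses are lists without a peak. Ptgs2 p65 stands at 113.1 and 158.5 with LPS and at 266.3 and 277.7 with IL-4 and LPS, and Ptgs1 RNAPII-pS5 is absent with LPS alone.

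IL-4 for 24 hr changed few members on its own. For RNAPII-pS2, Ptgs2 went from 47.0 and 36.5 to 78.9 and 93.5 (1.12 ± 0.22, adjusted p = 0.0245), the 1 of 4 members that passed beside 14.4% of genes. The call was lost when any 1 of these 4 lists was left out (adjusted p 0.0587 to 0.0983). The gain lay at the intergenic site 51.4 kb downstream, absent in ctrl_ctrl and at 48.4 and 47.8 with IL-4. At 64.9 kb the groups overlapped (38.2 and 30.8, then 30.6 and 42.2). Among these lists the Ptgs2 promoter had a peak in 24hIL4_ctrl replicate 2 only, of 3.46. For p65, Nos2 went from 22.8 and 29.7 to 9.16 and 7.40 (−1.52 ± 0.25, adjusted p = 0.0261), the 1 of 4 that passed beside 5.96% of genes, and this call was lost in the same way (adjusted p 0.0525 to 0.0820). Both changes kept the IL-4 lists apart from the ctrl_ctrl lists. For RNAPII-pS5, 0 of 4 passed in limma, 0 at an unadjusted p under 0.05, beside 8.66%.

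With LPS in both groups, IL-4 pretreatment left the Ptgs2 and Ptges responses in place. Ptgs2 p65 was 113.1 and 158.5 with LPS alone and 266.3 and 277.7 with IL-4 and LPS, a difference of 0.52 ± 0.30 after centring (adjusted p = 0.361). RNAPII-pS2 at Ptgs2 was 177.9 and 170.1 and then 278.7 and 271.6 (0.62 ± 0.22, adjusted p = 0.160), and RNAPII-pS5 was 42.1 and 59.1 and then 48.4 and 62.2 (adjusted p = 0.822). So p65 and RNAPII-pS2 separated the groups and RNAPII-pS5 did not, and no summed difference at Ptgs2 passed. At Ptges, p65 was 166.3 and 178.0 and then 213.0 and 218.4 (adjusted p = 0.868), and RNAPII-pS5 was 3.62 in 1 list and then 15.7 and 13.2 (adjusted p = 0.0308), a call lost in 3 of 4 leave-outs (without ctrl_1hLPS replicate 2 or either 24hIL4_1hLPS list, adjusted p up to 0.126).

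Ptgs1 passed between these groups for both forms of the polymerase. RNAPII-pS2 at Ptgs1 was 33.4 and 35.8 with LPS alone and 96.5 and 85.0 with IL-4 and LPS (1.34 ± 0.21, adjusted p = 0.0175). RNAPII-pS5 was absent and then 6.03 and 15.1 (adjusted p = 0.0255). p65 was 22.7 and 18.6 and then 69.5 and 57.9 (1.12 ± 0.35, adjusted p = 0.107, and 1.63 without centring, adjusted p = 0.0239). The RNAPII-pS2 call was lost when any 1 of its 4 lists was left out (adjusted p 0.0598 to 0.0931), and the RNAPII-pS5 peaks of Ptgs1 in these groups were all intergenic. The RNAPII-pS5 call was lost without either ctrl_1hLPS list or 24hIL4_1hLPS replicate 2 (adjusted p up to 0.0989). Nos2 had 55.3 and 69.2 and then 49.9 and 36.9 for RNAPII-pS2 (−0.57 ± 0.42). Its p65 was 87.5 and 96.0 and then 110.7 and 143.7 (−0.04 ± 0.25 after centring). So with IL-4 and LPS both Nos2 lists were lower for RNAPII-pS2 and higher for p65 than with LPS alone, and neither difference passed.

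In counts, 2 of 4 members passed for RNAPII-pS5 (Ptges and Ptgs1, up) beside 10% of genes, 1 of 4 for RNAPII-pS2 (Ptgs1, up) beside 8.46%, and 0 of 4 for p65 beside 12.5%, with 1 at an unadjusted p under 0.05. The RNAPII-pS5 count is no support, since Ptges had a peak in 3 of the 8 lists and met the filter only through lists with LPS. The 1540 genes behind the p65 share became 0 without either 24hIL4_1hLPS list and 5 among genes with a peak in every list. Against IL-4 alone, IL-4 with LPS changed 3 of 4 in RNAPII-pS5 (Ptgs2 and Ptges up, Ptgs1 down) beside 20.5%, 3 of 4 in RNAPII-pS2 (Ptgs2, Ptges and Nos2 up) beside 20.4%, and 3 of 4 in p65 (the same 3 genes, up) beside 27.8%, where Ptges again met the filter only through lists with LPS. Of these calls, those for RNAPII-pS5 at Ptgs1 and Ptgs2 and for RNAPII-pS2 at Ptgs2 and Nos2 were each lost in 2 or 3 of 4 leave-outs, with adjusted p up to 0.162, 0.0619, 0.0510 and 0.131. The lists were 24hIL4_1hLPS replicate 1 and both 24hIL4_ctrl lists for Ptgs1, 24hIL4_1hLPS replicate 2 and 24hIL4_ctrl replicate 1 for Ptgs2 RNAPII-pS5, both 24hIL4_1hLPS lists for Ptgs2 RNAPII-pS2, and these and 24hIL4_ctrl replicate 1 for Nos2. The difference between the LPS changes with and without IL-4, tested as an interaction in limma, passed for 0 of 4 members in each antibody, beside 6.11%, 6.38% and 7.42% of genes for RNAPII-pS5, RNAPII-pS2 and p65. Each of these shares fell when any 1 list was left out, which leaves 1 list in a group and weakens the test whichever list it is. At an unadjusted p under 0.05 there were 2, 1 and 2 members. The nearest were p65 at Nos2 (1.47 ± 0.35, adjusted p = 0.0685, and 2.12 without centring, adjusted p = 0.0215) and RNAPII-pS5 at Ptges and Ptgs1 (adjusted p = 0.0926 and 0.0952). These comparisons share lists, so their counts are not independent.

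At single sites, IL-4 pretreatment went with stronger Ptgs2 signals at 2 distal sites downstream of the gene, in intergenic sequence. At 51.4 kb downstream (chr1:150150920-150152054), p65 was absent without LPS, scored 26.2 and 23.9 with LPS alone and scored 65.5 and 73.3 with IL-4 and LPS. The difference was 1.20 ± 0.17 (adjusted p = 0.00371). RNAPII-pS2 there was absent in ctrl_ctrl, scored 48.4 and 47.8 with IL-4 alone, 45.8 and 46.1 with LPS alone and 91.9 and 81.8 with both (0.97 ± 0.22, adjusted p = 0.0287). So this site carried elongating polymerase after either treatment and p65 only in lists with LPS.

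At 97.8 kb downstream (chr1:150197493-150198288), the window with an NF-kB match, p65 scored 30.8 and 26.4 with LPS alone and 49.1 and 63.4 with both (0.70 ± 0.20, adjusted p = 0.0467). RNAPII-pS2 scored 26.6 and 26.2 and then 67.6 and 63.7 (1.37 ± 0.21, adjusted p = 0.00700). Neither antibody had a peak there without LPS. A site at 103.2 kb, chosen after its values were seen and given with no test, had p65 of 10.6 and 21.6 and then 58.3 and 63.5. Beside the tested sites, 31.3% of all p65 sites and 17.4% of all RNAPII-pS2 sites passed between the same groups in either direction. Leaving out either 24hIL4_1hLPS list ended the p65 call at 51.4 kb and the RNAPII-pS2 call at 97.8 kb, and leaving out any 1 of the 4 lists ended the other 2 calls at these 2 tested sites, with adjusted p up to 0.283.

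Other Ptgs2 sites did not follow that pattern. The site 64.9 kb downstream, which all 9 antibodies occupied, had p65 of 8.08 and 12.3 in ctrl_ctrl, 4.52 and 10.4 with IL-4, 35.7 and 49.2 with LPS and 47.4 and 57.1 with both. The promoter had p65 of 28.6 and 24.0 with LPS and 21.8 and 29.6 with both, and a single weak peak in each group without LPS. Both sites overlapped between the LPS groups. Of the 26 peaks at the Ptgs2 promoter, 23 carried the name Ptgs2 and the rest were named 7530420F21Rik.

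**Figure D3:**
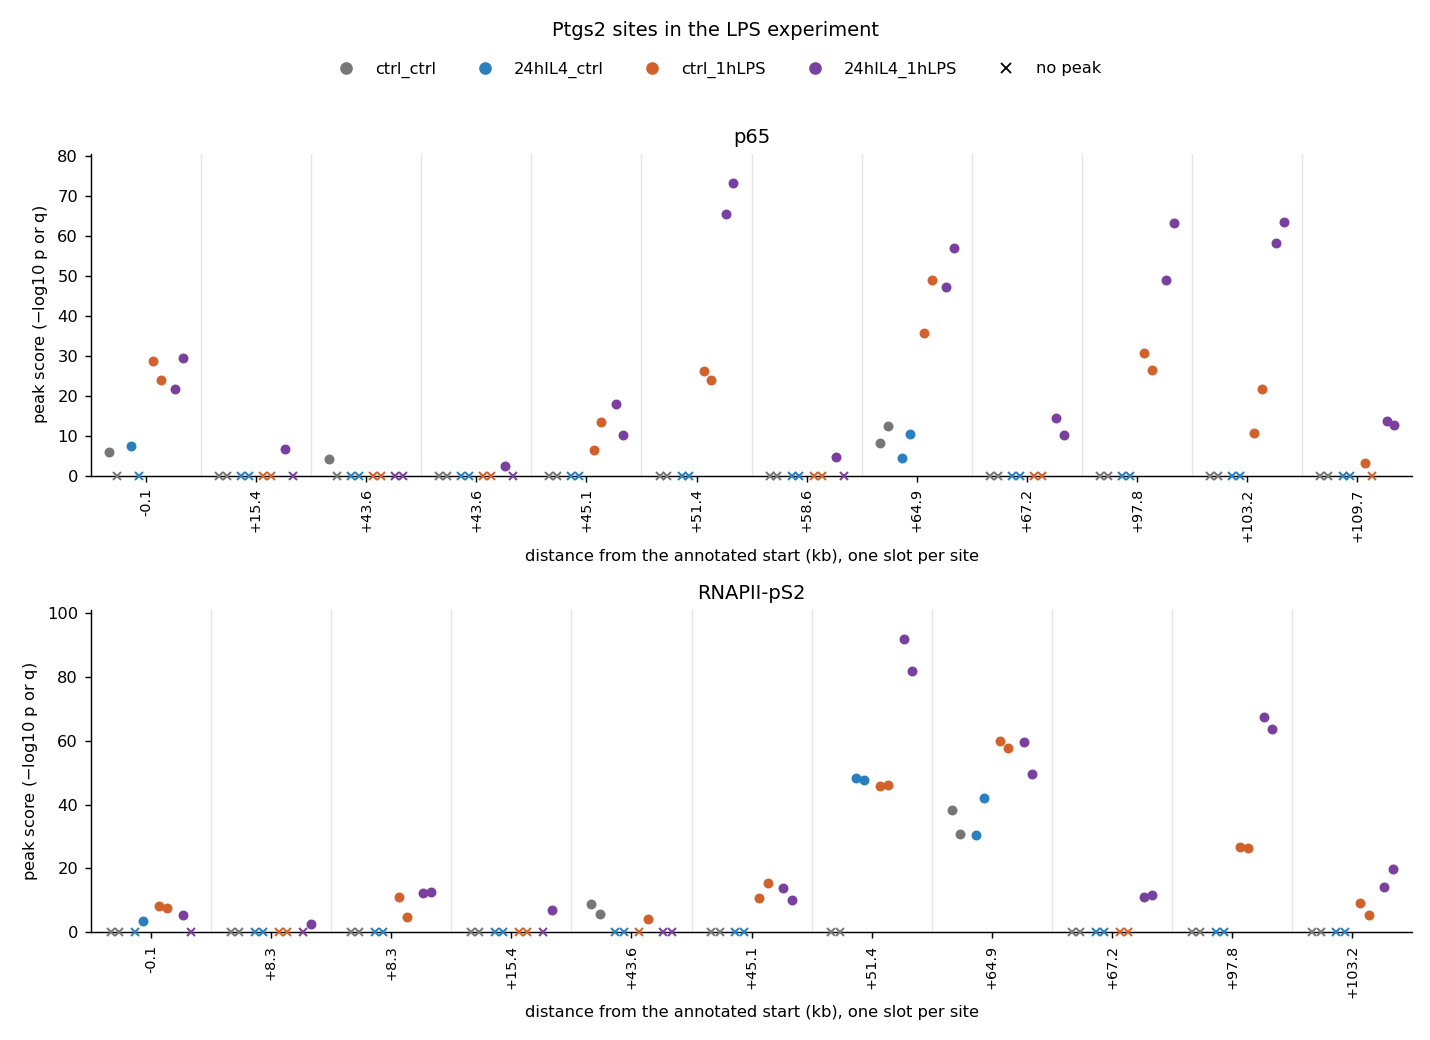
Score of each Ptgs2 site (y axis, −log10 p or q) for p65 and RNAPII-pS2 by its distance in kb from the annotated start (x axis, not to scale), where dots are single lists and crosses are lists without a peak. p65 at 51.4 kb stands at 26.2 and 23.9 with LPS alone and at 65.5 and 73.3 with IL-4 and LPS, while the promoter shows overlapping groups.

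The strongest p65 site of the 4 genes in the LPS lists lay 10.1 kb upstream of the Ptges start (chr2:30912761-30913812). It had no peak in ctrl_ctrl and 3.66 in 1 of the lists with IL-4 alone. With LPS it scored 94.8 and 105.6, and with IL-4 and LPS 104.8 and 101.2, which overlapped. At 22 kb upstream p65 was 46.0 and 35.6 with LPS and 41.2 and 46.2 with both, again overlapping. At 24.2 kb it was 25.5 and 37.0 and then 62.7 and 65.9 (0.80 ± 0.23, adjusted p = 0.0478), and this call was lost without 24hIL4_1hLPS replicate 1 or 2 or ctrl_1hLPS replicate 1 (adjusted p up to 0.239).

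The start of Ptges that the lists use, chr2:30903297 on the reverse strand, had no peak within 1000 bp in any list. The outer end of the Ptges gene span in GENCODE M21, called the outer start here, lies 26.6 kb further upstream, at chr2:30929863. The starts of single transcripts were not examined. Peaks over that outer start, 59 in all and from all 9 antibodies, carried the Gene Name Tor1b, so the rule left them out. Their p65 scores were 38.9 and 54.2 with LPS and 40.9 and 50.1 with both treatments, with no peak in ctrl_ctrl. RNAPII-pS2 there was 9.52 and 6.20 in ctrl_ctrl, 7.23 and 7.49 with IL-4, 13.2 and 17.6 with LPS and 12.6 and 13.9 with both, so RNAPII-pS2 peaks were present there in both ctrl_ctrl lists.

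At Nos2, the site 33.6 kb upstream (chr11:78886783-78888056) was the one p65 site present without LPS. It scored 22.8 and 29.7 in ctrl_ctrl and 9.16 and 7.40 with 24 hr of IL-4, a change of −1.47 ± 0.22 (adjusted p = 0.0237), beside 4.22% of all p65 sites. With LPS it scored 33.9 and 39.8, and with IL-4 and LPS 37.5 and 43.1, which overlapped. The LPS changes with and without IL-4 thus differed by 1.33 at this site (interaction adjusted p = 0.0308, beside 23.2% of all p65 sites), a call lost in 7 of 8 leave-outs. RNAPII-pS2 at this site was 6.73 and 13.8 in ctrl_ctrl, absent with IL-4 alone, 28.4 and 22.2 with LPS and 15.9 and 17.5 with both. After 1 hr of IL-4 its H3K27Ac was 45.1 and 46.5 in ctrl and 44.7 and 41.7 in 1hIL4. The p65 call was lost when any 1 of its 4 lists was left out (adjusted p 0.0647 to 0.113).

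The Nos2 promoter gained weaker p65 peaks with LPS, of 10.5 and 15.2 with LPS alone and 9.22 and 10.1 with both, and had none without LPS. At the promoter both lists with both treatments were thus lower than both with LPS alone, without passing (−0.655, limma adjusted p = 0.0865). The site 31.5 kb upstream also had p65 only with LPS, with 21.2 and 15.0 and then 17.6 and 24.5, which overlapped. The p65 sum over Nos2 in LPS lists thus came from 6 sites in each LPS list and 9 in each list with both.

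**Figure D4:**
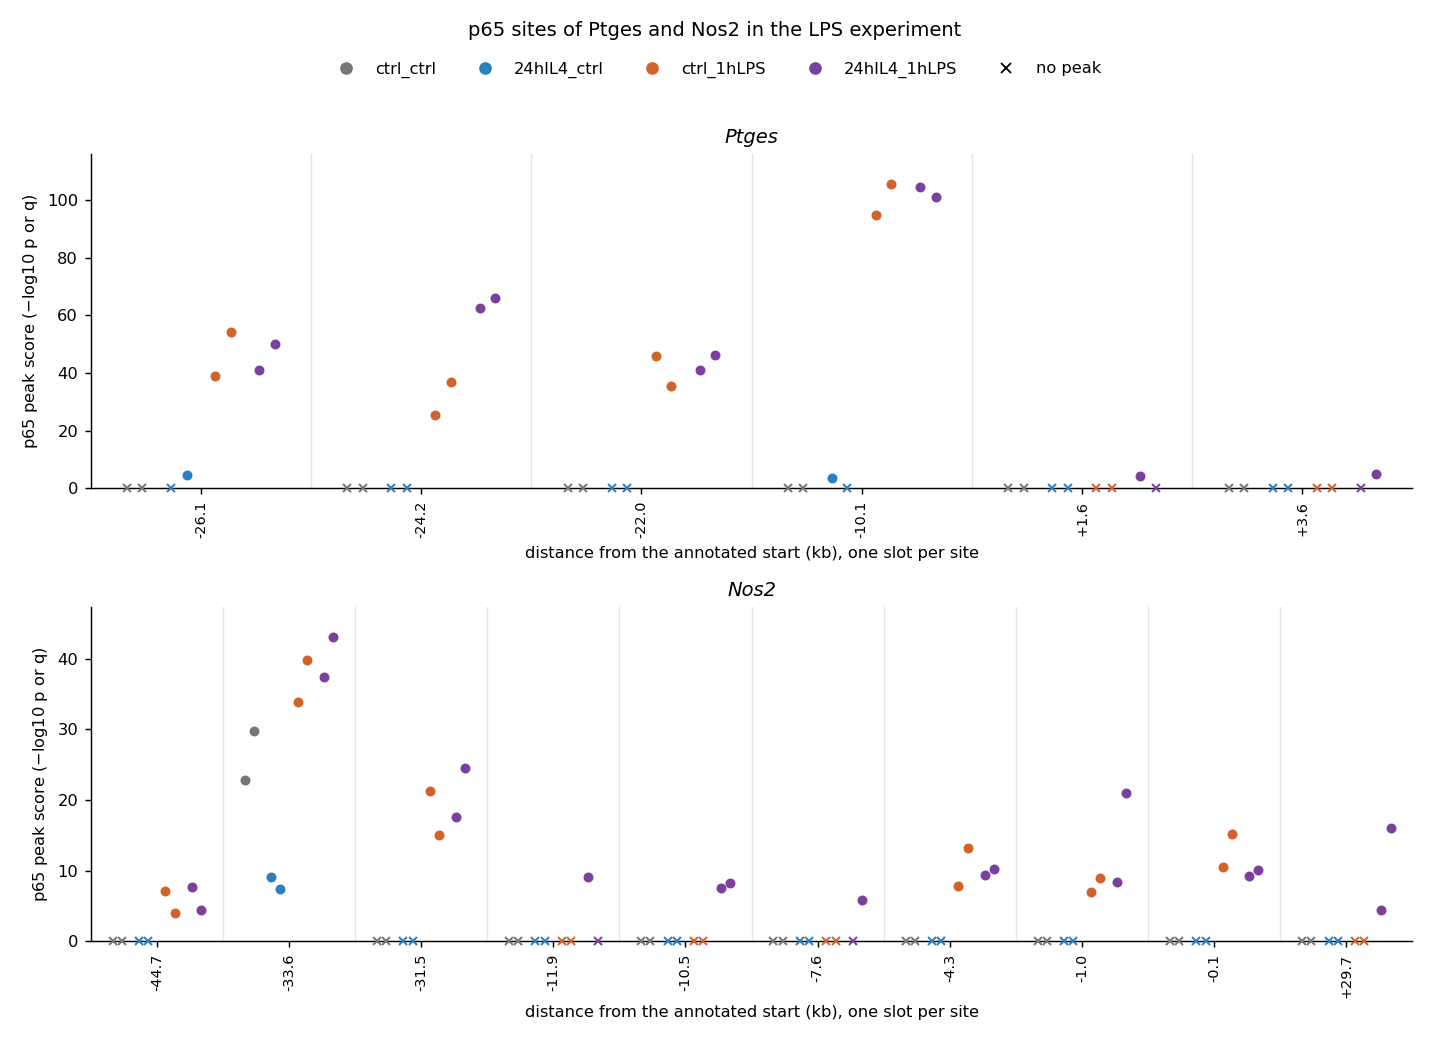
p65 score (y axis, −log10 p or q) of each Ptges and Nos2 site by its distance in kb from the annotated start (x axis, not to scale), where dots are single lists and crosses are lists without a peak; the site at −26.1 kb carries the name Tor1b. The Ptges site 10.1 kb upstream lies between 94.8 and 105.6 in all 4 LPS lists, and the Nos2 site 33.6 kb upstream falls from 22.8 and 29.7 to 9.16 and 7.40 with IL-4 alone.

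At Ptgs1, RNAPII-pS2 48.6 kb downstream was absent in ctrl_ctrl, 17.0 and 17.9 with LPS, 28.7 and 31.4 with IL-4 and 77.6 and 53.2 with both. The difference between both treatments and LPS alone was 1.94 ± 0.26 (adjusted p = 0.00386). This site made up most of the Ptgs1 sum with both treatments, and without intergenic peaks 1 of the 4 lists of these groups kept a Ptgs1 peak. p65 16.1 kb upstream of Ptgs1 was 15.4 and 15.3 in ctrl_ctrl, absent with LPS alone, 13.3 and 7.38 with IL-4 and 7.68 and 7.35 with both. This was a p65 site present without LPS and missing from both lists with LPS alone.

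The rest of the pathway was described from a list of 49 genes for arachidonate release, prostanoid and leukotriene synthesis, breakdown and receptors, and for arginine supply and the nitric oxide cofactor, of which 43 were named in the files. After 1 hr of IL-4, H3K27Ac rose at 11 and fell at 5 of 36 tested, beside 32.8% of all genes in either direction, with a median of −0.02 against −0.01 over all genes. Arg1, which competes with Nos2 for arginine, rose by 1.74 ± 0.09 (adjusted p = 0.00382), and Pla2g5, a secreted phospholipase A2, by 1.89 ± 0.09 (adjusted p = 0.00304). Slc7a2, an arginine transporter, had no ctrl region and scored 130.7 and 142.0 after IL-4. Ptger3, a prostaglandin E2 receptor, fell by 0.99 on the log2 scale (adjusted p = 0.00813). RNAPII-pS5 rose at 2 of 41 after 1 hr of IL-4, beside 1.39% of all genes in either direction. The 187 genes behind that share became 0 when any 1 list was left out. For the other 6 antibodies, 0 of those tested passed in limma.

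After LPS alone, RNAPII-pS5 rose at 4 and fell at 10 of 40 (median −0.86 against −0.34), RNAPII-pS2 rose at 9 and fell at 9 of 42 (−0.31 against −0.22), and p65 rose at 9 and fell at 6 of 39 (0.29 against −0.04), beside 25.4%, 26.7% and 35.1% of all genes. Lta4h, which makes leukotriene B4, had RNAPII-pS2 of 5.12 and 3.36 before and 54.0 and 50.8 after (3.44 ± 0.27, adjusted p = 7.96e-04). Hpgd, which breaks down prostaglandins, went from 52.6 and 42.2 to 9.91 and 8.46 (−2.59 ± 0.22, adjusted p = 0.00102), and Alox5, the 5-lipoxygenase, from 47.4 and 43.4 to 12.6 and 6.57 (−2.54 ± 0.50, adjusted p = 0.0161). Abcc4, a prostanoid exporter, gained p65, from 10.1 and 9.78 to 127.3 and 133.5 (2.08 ± 0.21, adjusted p = 0.00223). Gch1, the first enzyme of the biopterin cofactor, had p65 of 7.14 in 1 ctrl_ctrl list and 95.1 and 98.2 after LPS. With IL-4 pretreatment and LPS against LPS alone, 4 of 40 rose and 1 fell in RNAPII-pS5, 3 of 42 rose and 1 fell in RNAPII-pS2, and 5 of 39 rose and 1 fell in p65, near the 10%, 8.46% and 12.5% of all genes. Slc7a2 was among those that rose in all 3, with p65 of 11.7 and 10.5 and then 115.7 and 124.9 (2.94 ± 0.33, adjusted p = 0.00413).

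By RNAPII-pS5 over the 8 lists of the LPS experiment, the genes of 12477 with the pattern most like each member were found by Pearson correlation. For Ptgs2 they were Synpo2 (r = 0.985), Birc3 (0.985) and Rhbdf2 (0.982). For Ptgs1 they were Slc22a4 (0.993), 1190002F15Rik (0.992) and Mrps28 (0.991), and for Ptges Atm (0.997), Ankib1 (0.995) and Ginm1 (0.987). For Nos2, which had an RNAPII-pS5 peak in 3 of the 8 lists, they were Copz1 (0.987), Gm20597 (0.974) and Mob3c (0.951). Such values are descriptions, since the lists share 4 conditions and a few absent peaks can set them.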

How the data were processed

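ChIP-seq peak lists of 56 samples were analysed, from 9 antibodies in mouse BMDMs grouped by the sample labels. The submitters' processing notes name BWA 0.7.10, SAMtools 0.1.19, MACS2 2.0.10 and HOMER 4.2, on mm10, and the study's methods state removal of blacklisted regions. The scores deposited by the authors are −log10 p or q values from MACS2, called per sample (which of the 2 is not given in the sources used here). For H3K27Ac the deposited score is a HOMER signal of normalised tags. Peak scores grow with sequencing depth, which is unknown here, and no input control is stated.

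Peak scores were summed per gene by the Gene Name column, set to the lowest score of the antibody where no peak was listed, log2 transformed, centred on the median of genes with a peak in all samples of the fit, and tested by limma 3.58.1 in R 4.3.3 where at least 2 samples had a peak. Benjamini-Hochberg adjusted p values over all genes of at most 0.05 passed. The 8 comparisons at 1 hr used 4 samples each, and the 3 LPS fits used 8, with 4 groups sharing the spread. A gene without a peak in the groups compared under an alternative got no value. An exact permutation test of 2 against 2 samples cannot go below p = 0.333. Sites were merged peaks overlapping by at least 1 bp, valued by their highest score. Named sites were, per gene and antibody, the highest-scoring site within 1000 bp of the start and up to 3 further sites with the highest mean score, whatever their change. DiffBind, which the study used on reads, was not run on these lists. The limma step was run on simulated H3K27Ac and p65 values with normal noise of equal spread and no absent peaks. That run cannot speak to calls that rest on the stand-in score. The members and gene lists were chosen with earlier results of these data known. Alternatives changed the floor, centring, filter, peak threshold, merging, summing, block and samples. Leaving out 1 list left 1 in its group and weakened the test. A call lost in this way does not by itself show that 1 list carried the change.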

Additional observations from a re-analysis of the deposited data

Results flagged for a closer look

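At the p65 site 33.6 kb upstream of Nos2, the LPS change with IL-4 pretreatment exceeded the LPS change without it by 1.33 on the log2 scale (limma interaction over all p65 sites, adjusted p = 0.0308, beside 23.2% of p65 sites that passed). Scores were 22.8 and 29.7 untreated, 33.9 and 39.8 with LPS, 9.16 and 7.40 with IL-4 and 37.5 and 43.1 with both, so the groups differed mainly before LPS. The call was lost in 7 of 8 leave-outs, with adjusted p up to 0.176. Of the 40 named sites tested in this way over the 3 antibodies, 10 passed, and 9 of those had a sample without a peak. For p65 alone it was 3 of 15, near the 23.2% of all p65 sites. The share over all sites was not computed for RNAPII-pS5 or RNAPII-pS2, so these counts are a description.

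Peaks over the outer Ptges start, 26.1 kb upstream of the start used by the lists (chr2:30928269-30930183), carry the Gene Name Tor1b. They entered no main comparison of Ptges. Only the alternative with all peaks in the annotated gene span counted them for Ptges. p65 there had no peak untreated, reached 38.9 and 54.2 with LPS and 40.9 and 50.1 with both treatments, and was 4.5 in 1 list with IL-4 alone. RNAPII-pS5 was 6.44 in 1 untreated list, 9.75 and 7.53 with IL-4, 15.1 and 21.4 with LPS and 23.6 and 21.9 with both. RNAPII-pS2 was 9.52 and 6.20 in ctrl_ctrl, 7.23 and 7.49 with IL-4, 13.2 and 17.6 with LPS and 12.6 and 13.9 with both. H3K27Ac went from 363.1 and 354.6 in ctrl to 269.5 and 280.5 after 1 hr of IL-4 (−0.33 ± 0.06, limma adjusted p = 0.0246). Which of the neighbouring genes these peaks belong to was not tested.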

How the results depend on the processing

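Each count of members past the threshold and each member's change was recomputed under the alternatives, 1 at a time. Of 323 recomputed counts, 253 stayed within 1.5 times the reported one. Of 1059 recomputed changes of members, 941 kept direction and side of the threshold, 78 lost and 28 gained a call, and 12 changed sign, and 36 others got no value because the groups compared then held no peak of the gene; of 816 recomputed changes of sites, 41 lost and 22 gained a call and 0 changed sign. The causes were not tested. Scores without depth, 2 lists per group and the value set for absent peaks limit all of these results.

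With intergenic peaks left out, the sign turned for Ptgs2 H3K27Ac after 1 hr of IL-4 (0.388), for Ptgs1 RNAPII-pS2 between both treatments and LPS (−1.261), for p65 at Ptgs2 with LPS (−0.497), at Ptges between both treatments and LPS (1.399), and at Ptges (−0.267) and Ptgs2 (−3.355) between both and IL-4. With all peaks in the annotated gene span, an alternative chosen after seeing the data, it turned for Ptgs2 H3K27Ac (0.406), Ptgs1 RNAPII-pS2 between both treatments and LPS (−1.266), Nos2 RNAPII-pS2 with IL-4 (1.996), and the Nos2 interaction in RNAPII-pS5 (−2.033) and RNAPII-pS2 (−2.929). In all of these some lists had no peak, so the values are partly set by the stand-in score and the centring and are no folds. Without centring, p65 at Ptgs1 between both and IL-4 became 1.546.

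Counts of members that moved were as follows. H3K27Ac after 1 hr of IL-4 went from 1 to 2 with no centring, a higher floor, the highest peak, a peak in every sample or no intergenic peaks, and to 3 in the gene span. With LPS, RNAPII-pS5 went from 2 to 1 (highest peak, peak in every sample), 0 (upper 50% of peaks) or 4 (gene span), RNAPII-pS2 from 4 to 1 (highest peak) and p65 from 3 to 1 (no intergenic peaks). With IL-4, RNAPII-pS2 went from 1 to 0 (highest peak, no intergenic peaks, only the groups compared) and p65 from 1 to 0 (no intergenic peaks, upper 50% of peaks, only the groups compared). Between both treatments and LPS, RNAPII-pS5 went from 2 to 1 (higher floor, highest peak, upper 50% of peaks, gene span) or 0 (no intergenic peaks, peak in every sample, only the groups compared), RNAPII-pS2 from 1 to 0 (no intergenic peaks, only the groups compared, gene span) and p65 from 0 to 1 (higher floor, no centring, no intergenic peaks). Between both and IL-4, RNAPII-pS5 went from 3 to 1 (highest peak, peak in every sample), RNAPII-pS2 from 3 to 1 (highest peak) and p65 from 3 to 1 (no intergenic peaks). Interactions went from 0 to 1 for RNAPII-pS5 (higher floor, upper 50% of peaks, gene span), RNAPII-pS2 (upper 50% of peaks, gene span) and p65 (higher floor, no centring, gene span). At 1 hr, RNAPII-pS5 and HDAC3 went from 0 to 1 (upper 50% of peaks) and RNAPII-pS2 from 0 to 1 (the same, and a higher floor).

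Leaving out 1 replicate at a time gave 0 to 1 for the p65 interaction and for p65 with IL-4, 0 to 0 for RNAPII-pS2 with IL-4 and between both treatments and LPS, 2 to 3 for RNAPII-pS2 with LPS, 1 to 3 for RNAPII-pS2 and 1 to 2 for RNAPII-pS5 between both and IL-4, and 0 to 1 for RNAPII-pS5 between both and LPS. Of 24 member calls 12, and of 14 site calls 5, were kept in every leave-out. With the replicate number as a block (replicate block), RNAPII-pS2 with IL-4 and p65 with IL-4 each went from 1 to 0; the numbers did not pair the samples (r from −0.027 to 0.066 over 26 pairs of groups).

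Counts over all genes moved as well. Leaving out 1 list lowered the 4281 H3K27Ac genes to between 1255 and 1586, and the block to 2527, and 1041 genes passed for p300 without ctrl replicate 2 and 1035 with a peak in every sample. With a peak in every sample, LPS gave 1238, 2125 and 1547 genes for RNAPII-pS5, RNAPII-pS2 and p65 in place of 3175, 3647 and 4324, and leaving out 1 list gave no fewer than 1878, 2005 and 3190. A higher floor gave 8382 p65 genes with LPS, and no centring gave 8886 between both treatments and IL-4 in place of 3424.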
